A study of Homo sapiens with 191 samples.

Results

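The genes of the DNA replication machinery were examined in a list of accessible regions from GM12878, a human B-lymphoblastoid cell line immortalised by Epstein-Barr virus. The set holds 46 named protein-coding genes of 20090 protein-coding gene symbols on chromosomes 1 to 22 and X, listed by name for their known roles in replication. For each gene, the regions whose centre lies within 1 kb of an annotated transcription start site (TSS) were taken as its promoter regions, and the highest score among them as its value.

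The GM12878 cells were crosslinked, permeabilised, transposed together with Tn5 and then sorted into single wells, with no antibody staining, giving the 96 libraries of plate 1 and the 95 libraries of plate 2 that are covered here. ATAC-seq reads where the transposase can reach DNA, so a region in the list is a stretch of open chromatin. All libraries form 1 group from 1 cell line, and the authors called the 50000 regions, each 501 bp wide, on the pooled cells. The list therefore has no replicate and no value per cell, the depth is unknown, and no test between groups was possible. The score of a region is the -log10 of the q-value that the authors' peak caller gave it, from 16.0 for the 3102 weakest regions to 4437.6, with a median of 31.6. It ranks how clearly a region stood out from background in the pool, and intervals given below cover counting error only. A fold between scores compares -log10 q-values and is not a fold in accessibility.

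Chromosomal DNA replication proceeds in steps carried out by separate protein complexes. The origin recognition complex (ORC), CDC6 and CDT1 load the ring-shaped MCM helicase on DNA in G1, and CDC45 and the GINS complex join it to form the active helicase. DNA polymerase alpha with primase then lays down primers, polymerases delta and epsilon extend them while held by the sliding clamp PCNA, which the RFC complex loads, and replication protein A (RPA) covers the exposed single strands. Ribonucleotide reductase and thymidylate synthase supply deoxynucleotides, and many of these genes are textbook targets of the E2F transcription factors, which act as cells pass from G1 into S phase.

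Of the 46 replication genes, 45 had a promoter region (97.8%, exact 95% binomial interval 88.5 to 99.9%), against 57.2% of all protein-coding genes. Their strongest promoter regions scored between 34.7 and 2108.5, a 60.8-fold range, with a median of 192.9 (order-statistic 95% interval 139.5 to 313.7) and quartiles of 125.7 and 425.6. For the 11499 protein-coding genes with a promoter region, the median was 129.6 and the quartiles were 49.1 and 334.2. Of the 45 genes, 32 scored above the all-gene median, 15 were at or above its upper quartile and 4 were at or below its lower quartile. The 4 weakest were CDT1 and RPA1, both at 34.7, and TOPBP1 and RFC1, both at 37.8. Scores came in only 784 distinct values, so such ties say nothing about a relation between the genes.

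**Figure D1:**
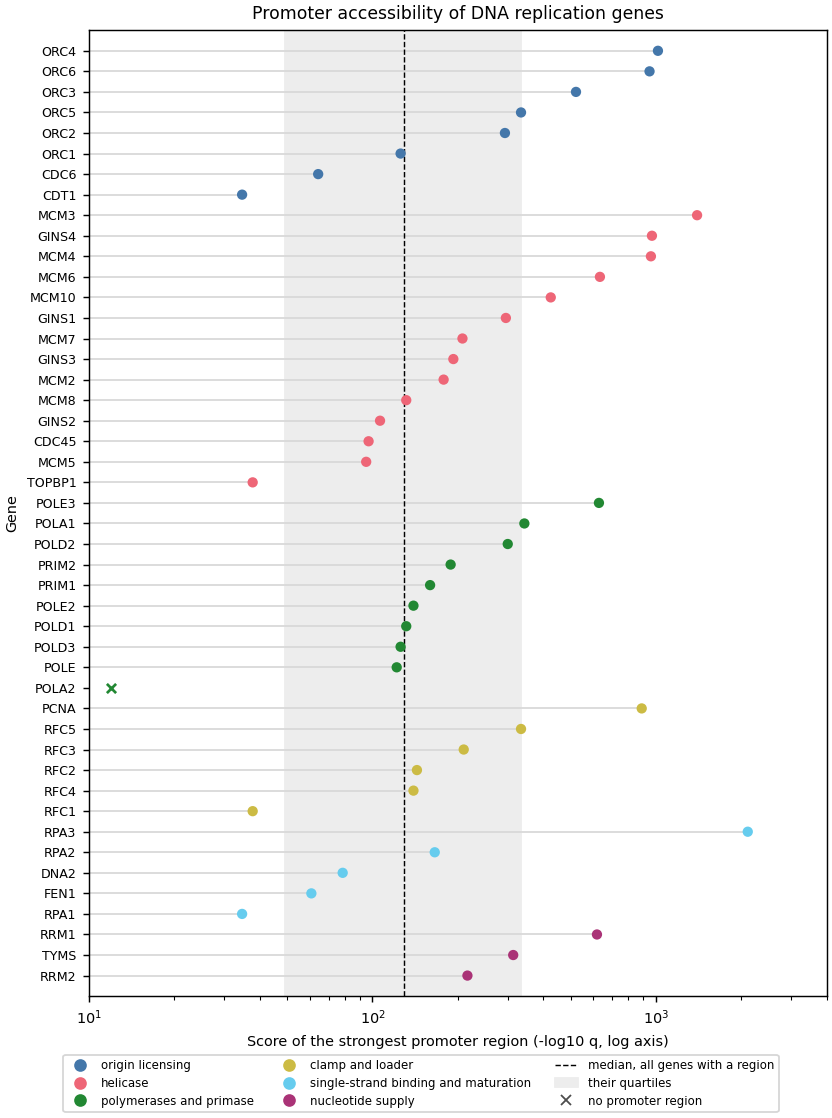
Score of the strongest promoter region (-log10 q, log axis) of each replication gene, ordered by score within its role group. The dashed line and grey band give the median of 129.6 and the quartiles of all protein-coding genes with a promoter region, 32 points lie to the right of the line, and POLA2 is marked as the gene without a region.

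Most replication genes start in CpG-rich sequence, and the share with a region was also read against that class. The 500 bp on each side of the outermost TSS were classed by sequence. They were called CpG-rich at a GC content of at least 50% and an observed-to-expected CpG ratio of at least 0.6. By this rule 37 of the 46 genes were CpG-rich (80.4%, against 57.7% of all protein-coding genes). Of the 37, 36 had a promoter region, against 74.3% of the 11583 CpG-rich genes. All 9 replication genes outside this class also had one, against 2890 of the 8507 genes outside it. The class was set at the outermost TSS, whereas the region could lie at any TSS. With the outermost TSS alone, GINS2, GINS3, PRIM2, RFC5 and RPA3 of these 9 had none. The representative transcript alone (the MANE Select transcript for all 46 genes) was also used. At its start 44 genes were CpG-rich, against 65.1% of all genes with such a transcript. Of the 44, 43 had a region within 1 kb of that start, against 71.3% of all genes CpG-rich there.

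The stretches of DNA just before the TSS of a few replication genes are given here because they show the words that recur in these promoters. Each is read 5′ to 3′ on the strand of the gene from the reference sequence of hg19, lies within the strongest promoter region and before its TSS, and leaves out annotated exons of protein-coding genes. Capitals mark the 8-base E2F words (TTTCCCGC, TTTCGCGC, TTTGCCGC, TTTGGCGC or GGCGGGAA, on either strand) and the CCAAT box, the word bound by NF-Y, which reads ATTGG on the other strand. MCM3 and MCM6 encode helicase subunits, GINS2 a GINS subunit, POLA1 the catalytic subunit of polymerase alpha and PCNA the clamp. The PCNA stretch lies before the TSS at 5107272, whereas the TSS of its representative (MANE Select) transcript is at 5100604. ORC4, an origin recognition subunit, is shown as the strongest gene of its group and holds none of these words in the stretch, and RRM1, the large subunit of ribonucleotide reductase, holds a CCAAT box alone. The stretches are chr6:52149680-52149839 for MCM3 (minus strand), chr2:136634014-136634173 for MCM6 (minus strand), chr16:85722561-85722720 for GINS2 (minus strand), chrX:24711830-24711989 for POLA1 (plus strand), chr20:5107273-5107432 for PCNA (minus strand), chr2:148778333-148778492 for ORC4 (minus strand) and chr11:4115777-4115936 for RRM1 (plus strand).
MCM3: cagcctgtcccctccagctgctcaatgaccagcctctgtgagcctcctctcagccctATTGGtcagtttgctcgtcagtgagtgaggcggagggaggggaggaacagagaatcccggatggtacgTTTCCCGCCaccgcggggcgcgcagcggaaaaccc
MCM6: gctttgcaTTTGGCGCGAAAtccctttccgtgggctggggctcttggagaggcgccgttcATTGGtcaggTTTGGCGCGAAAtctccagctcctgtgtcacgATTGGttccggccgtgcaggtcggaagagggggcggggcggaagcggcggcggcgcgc
GINS2: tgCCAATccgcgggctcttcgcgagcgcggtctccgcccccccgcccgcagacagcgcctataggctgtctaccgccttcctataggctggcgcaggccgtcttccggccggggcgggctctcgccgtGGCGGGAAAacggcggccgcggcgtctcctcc
POLA1: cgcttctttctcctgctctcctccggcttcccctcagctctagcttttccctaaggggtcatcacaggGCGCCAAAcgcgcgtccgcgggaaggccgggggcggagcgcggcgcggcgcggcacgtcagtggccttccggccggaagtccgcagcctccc
PCNA: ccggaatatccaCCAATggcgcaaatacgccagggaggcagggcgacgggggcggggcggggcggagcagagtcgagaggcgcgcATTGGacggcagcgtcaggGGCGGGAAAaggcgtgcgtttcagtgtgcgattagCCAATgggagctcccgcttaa
ORC4: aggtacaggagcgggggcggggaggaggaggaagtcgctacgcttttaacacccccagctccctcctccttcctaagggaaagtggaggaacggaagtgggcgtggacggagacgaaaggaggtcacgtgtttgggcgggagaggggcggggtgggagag
RRM1: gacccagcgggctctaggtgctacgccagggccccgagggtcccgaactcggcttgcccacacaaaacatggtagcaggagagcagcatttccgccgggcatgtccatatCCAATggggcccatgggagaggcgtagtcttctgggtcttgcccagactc

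The MCM6 stretch holds the same 12 bases, TTTGGCGCGAAA, in 2 places, and each place reads as an E2F word on both strands. In MCM3 and PCNA, and likewise in GINS2, the words TTTCCCGC and GGCGGGAA overlap by all but 1 base, so these genes are counted under both.

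The origin licensing genes all had a promoter region (8 of 8), with a median score of 313.8. The 6 ORC subunits, which mark origins and help to load the helicase, had a median of 428.3. ORC4 scored 1016.5 (rank 607 of the list, chr2:148778180-148778680), ORC6 949.4, ORC3 522.4, ORC5 334.2, ORC2 293.3 and ORC1 125.7. ORC1, the subunit with the best known cell-cycle regulation, was thus the lowest of the 6 and the only ORC gene under the all-gene median. CDC6, the ATPase that joins ORC to load the helicase, scored 64.3, and CDT1, the factor that brings the MCM complex, scored 34.7 (rank 22555). The CDT1 region was centred 617 bp before the TSS, and no other region lay within 1 kb of it. All 6 ORC genes scored above both loading factors.

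The helicase genes all had a region as well (14 of 14), with a median of 200.3 and a 37.0-fold range. The genes of the 6 subunits of the MCM ring had scores that differed by 14.7-fold. MCM3 scored 1396.9 (rank 302, chr6:52149472-52149972), MCM4 960.1, MCM6 634.5, MCM7 207.7, MCM2 178.2 and MCM5 95.0. Their median was 421.1, and MCM5 alone lay under the all-gene median. The genes of the 4 GINS subunits scored 968.1 for GINS4, 295.5 for GINS1, 192.9 for GINS3 and 106.3 for GINS2. CDC45, the third part of the active helicase, scored 96.9. MCM10, which helps to activate the helicase, scored 425.6, MCM8, an MCM relative known for its part in homologous recombination, scored 131.6, and TOPBP1, a scaffold for loading CDC45, scored 37.8.

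The genes of the polymerases and primase were the only group with a gene lacking a promoter region, and the 9 others spanned 5.17-fold, from 121.7 to 629.5, with a median of 159.7. For polymerase alpha and primase, POLA1 scored 343.4, PRIM2, the large primase subunit, 188.7, and PRIM1, the catalytic primase subunit, 159.7. For polymerase delta, the accessory subunit POLD2 scored 300.1, the catalytic subunit POLD1 131.6 and the accessory subunit POLD3 125.7. For polymerase epsilon, the histone-fold subunit POLE3 scored 629.5, POLE2 139.5 and the catalytic subunit POLE 121.7. POLE3 was the highest and POLE the lowest of the 9 when any TSS was used. At the representative TSS alone, POLD1 (33.1) and POLD3 (60.9) were below POLE, and the span was 19.0-fold. The annotation places a pseudogene copy of PRIM2 over part of that gene, and reads from near-identical copies may have been removed or misplaced, so its count of regions is uncertain.

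POLA2, the second subunit of polymerase alpha, had no region within 1 kb of a TSS and none in the gene or 10 kb on each side. Its TSS on the plus strand of chromosome 11, at 65029384, lay in a gap of 220 kb between 2 listed regions, 1 at SYVN1 with a score of 52.4 and 1 at TIGD3 with a score of 80.3. The gap held the starts of 6 protein-coding genes, among them CAPN1 and DPF2. Within 1 Mb, 40 of 81 protein-coding genes had a promoter region (49.4%). The sequence around the POLA2 TSS had a GC content of 60.7% and a CpG ratio of 0.83. The list was limited to 50000 regions, of which 3102 tied at the lowest score of 16.0. POLA2 having none therefore says that no region there was kept in the list, not that the promoter was closed.

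The clamp and its loader had 6 of 6 genes with a region and a median of 176.7. PCNA scored 890.9 (rank 775, chr20:5107158-5107658). The 5 RFC genes, which encode the subunits of the loader, scored 334.2 for RFC5, 209.8 for RFC3, 143.5 for RFC2, 139.5 for RFC4 and 37.8 for RFC1, the large subunit. All 5 lay under PCNA.

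Single-strand binding and maturation genes (5 of 5 with a region) had the lowest median, 78.5, and also the widest range. RPA3, the small RPA subunit, had the highest score of all 46 genes, 2108.5 (rank 89, chr7:7680018-7680518), whereas RPA2, the middle subunit, scored 165.8 and RPA1, the large subunit, 34.7. The 3 subunits of 1 complex thus covered the whole range of the set, with RPA3 read at an internal start. The flap endonuclease FEN1 scored 60.9 and the helicase-nuclease DNA2 scored 78.5.

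The nucleotide supply genes had 3 of 3 with a region and a median of 313.7. RRM1 scored 619.4, TYMS (thymidylate synthase) 313.7 and RRM2, the small ribonucleotide reductase subunit, 216.3, all above the all-gene median. The TYMS region was centred 650 bp after its representative TSS. The region nearest to that TSS, 77 bp before it, scored 78.5, under the all-gene median. Each of the 3 had more than 1 promoter region. Between role groups, the medians ran from 78.5 to 313.8, but in every pair of groups the ranges overlapped, and with 3 to 14 genes a group the order of the medians was not tested.

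Many of these genes have more than 1 annotated TSS, and the strongest region was not always at the representative TSS. It was the same region in 39 of the 44 genes with a region within 1 kb of the representative TSS. For PRIM2 and TYMS that region was not the nearest to the representative TSS. For MCM5 the strongest region (95.0) lay at an internal start and the region at the representative TSS scored 83.9. For GINS1 these values were 295.5 and 151.6, for PCNA 890.9 and 811.9, for POLD3 125.7 and 60.9, and for POLD1 131.6 and 33.1. The RPA3 region lay at an internal RPA3 start, downstream of the representative one and facing UMAD1, and no region lay within 1 kb of the representative RPA3 TSS. The score of 2108.5 therefore describes the start shared with UMAD1. By representative TSS, the 44 genes had a median of 183.4 against 131.6 for all genes, and 53.0% of the 19812 genes with such a transcript had a region there.

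**Figure D2:**
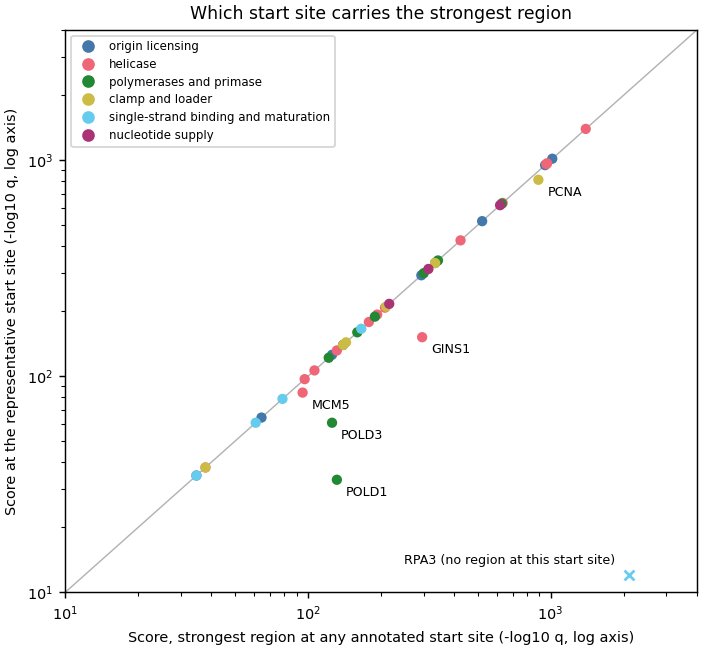
Score of the strongest region at any annotated start site (x axis) against the score at the representative start site (y axis), both as -log10 q on log axes, with 1 point per replication gene and the diagonal marking equal scores. The 5 named points off the diagonal are genes whose strongest region lies at another start, and the cross marks RPA3, which had no region at its representative start.

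The strongest regions sat close to the TSS. Their centres lay a median of 74 bp from the nearest TSS of the gene (87 bp for all genes), 29 before it and 16 after it, and 40 of 45 lay within 200 bp (88.9%, against 78.3% for all genes). Centres more than 500 bp away were seen for CDT1, PRIM2 and POLD3. PRIM2 had a second region of score 133.5, 0.115 kb before its TSS. In all, the genes had 71 promoter regions, and 19 genes had more than 1, which is 42.2% of the 45 and 42.2% of all genes with a region. The 3 regions of ORC6 were centred 0.84 and 0.19 kb before and 0.27 kb after its TSS, with scores of 139.5, 949.4 and 82.1, and came from 1 broad call with 3 summits.

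**Figure D3:**
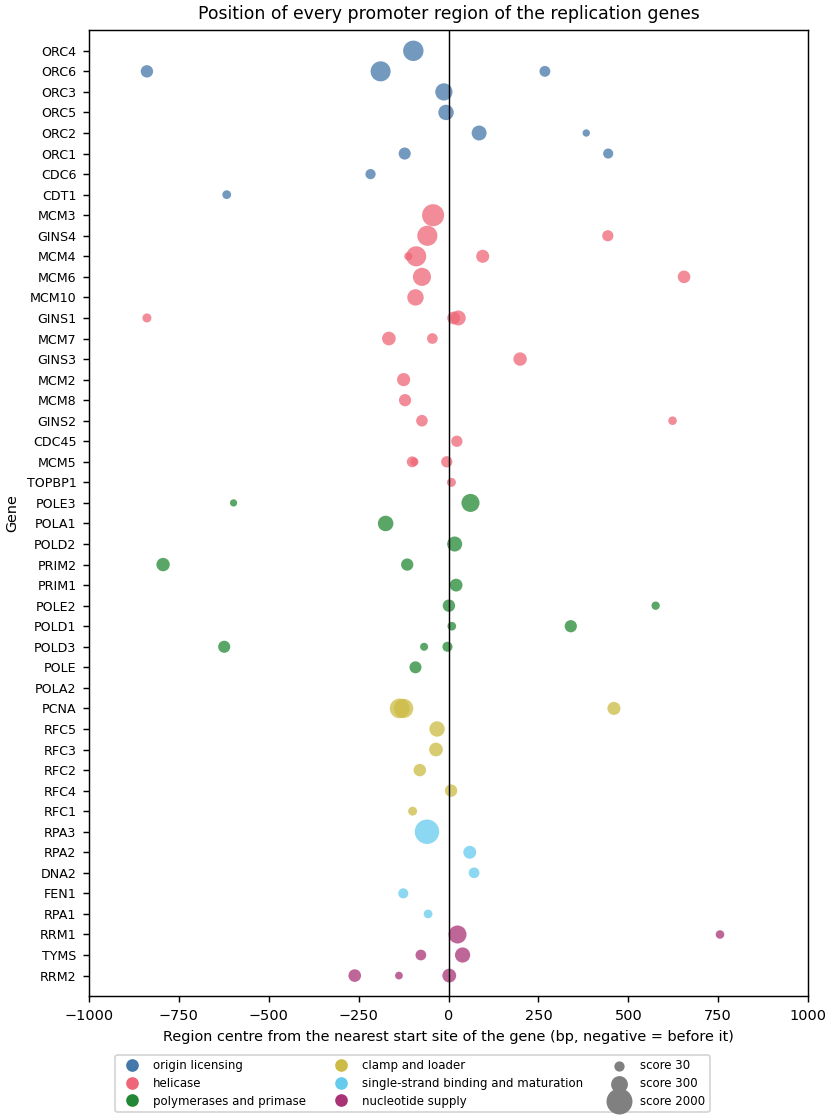
Distance in bp of every promoter region of the replication genes from the nearest TSS of its gene (x axis, negative before the TSS), with 1 row per gene and symbols whose area grows with the square root of the score. Most regions crowd around 0, the strongest ones included, and 19 rows hold more than 1 region.

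Of the 45 strongest regions, 19 (42.2%) also lay within 1 kb of a TSS of another protein-coding gene, against 28.0% of all genes with a region. In 17 of the 19 the partner was divergent, on the other strand and pointing away, with 0.039 to 0.72 kb between the starts and a median of 0.173 kb. The divergent share among all genes with a shared region is not given here, so this count is not shown to be particular to the set. Origin licensing genes shared a region in 4 of 8 cases. ORC3 started 0.039 kb from RARS2, a mitochondrial tRNA synthetase, ORC6 0.125 kb from VPS35, a retromer subunit, ORC1 0.179 kb from PRPF38A, a splicing factor, and ORC4 0.248 kb from MBD5. Among the helicase genes, 6 of 14 shared a region. MCM4 paired with PRKDC, the catalytic subunit of DNA-dependent protein kinase, over 0.72 kb, MCM7 with AP4M1 over 0.182 kb, MCM2 with TPRA1 over 0.143 kb and CDC45 with UFD1 over 0.536 kb. GINS1 paired with ABHD12 over 0.173 kb and MCM8 with TRMT6 over 0.119 kb. The region GINS1 shared was its strongest (295.5), which was not the one at its representative TSS. POLE3 and C9orf43 started 0.067 kb apart, POLE and PXMP2 0.211 kb, PCNA and CDS2 0.253 kb, and RPA1 and SMYD4 0.069 kb. FEN1 lay between TMEM258, divergent at 0.109 kb, and a start of FADS2 on its own strand 0.069 kb downstream. The partner of POLD1 was on the same strand, and that of PRIM1, HSD17B6, started within the span of PRIM1. No nucleotide supply gene shared a region with a protein-coding gene. The median score was 178.2 for the 19 shared regions and 201.4 for the 26 others, and both sets began at 34.7. For a shared region the score cannot be divided between the genes.

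Regions away from promoters were about as common at the replication genes as elsewhere. Counted across each gene body with 10 kb of flank on either side, the 46 genes held a median of 2.5 regions, against 2 for all protein-coding genes, or 0.43 per 10 kb against 0.26. Of all these regions, 71 were promoter regions of the gene itself, 19 lay only at the promoter of another gene and 28 at no protein-coding promoter. These 28 were found at 18 genes (39.1%, against 41.7% of all protein-coding genes), 16 of them in introns, and scored from 16.0 to 74.9 with a median of 22.1, against a median of 25.7 for all regions of the list at no protein-coding promoter. The strongest were a region downstream of RPA2 (74.9), a region downstream of POLE2 (69.6) and an exonic region near TOPBP1 (57.4). That last region scored higher than the TOPBP1 promoter region (37.8). PRIM2 and POLE2 had the most regions, 6 each. MCM6 had 3 regions away from promoters, 2 of them intronic, with scores of 21.4 to 25.7.

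**Figure D4:**
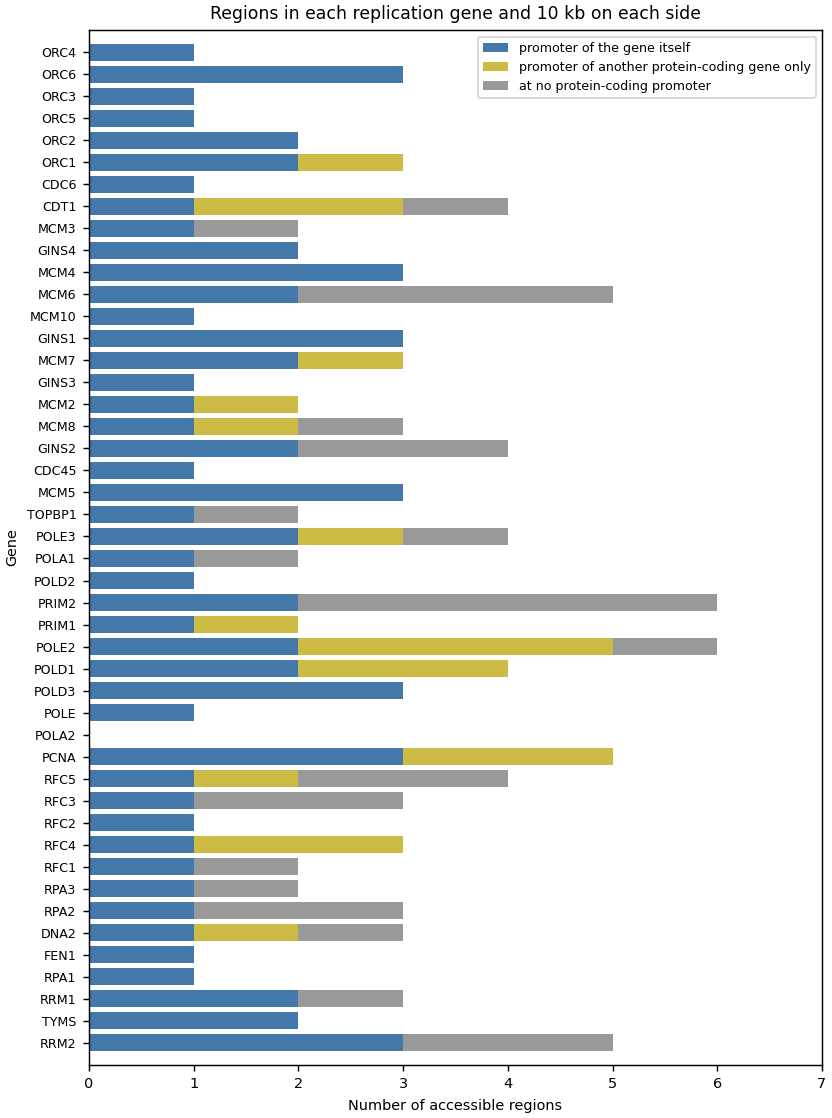
Number of accessible regions (x axis) in each replication gene and 10 kb on each side, split into promoter regions of the gene itself, regions only at the promoter of another protein-coding gene and regions at no such promoter. Blue makes up 71 regions, against 19 and 28 of the other kinds, PRIM2 and POLE2 reach 6 and POLA2 has none.

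The words printed in capitals above were counted in the strongest promoter region of each gene. An E2F word of the 4-word set (TTTCCCGC, TTTCGCGC, TTTGCCGC or TTTGGCGC, either strand) was present in 17 of the 45 regions (37.8%, exact 95% binomial interval 23.8 to 53.5%), against 6.60% of the 16365 promoter regions of the list. Against the 9930 regions that were the strongest of some gene, the background was 7.81%. By role, 8 of 14 helicase genes held the word, 3 of 9 polymerase and primase genes, 2 of 8 origin licensing genes (ORC3 and CDC6), 2 of 6 clamp and loader genes (PCNA and RFC3), 2 of 5 single-strand binding and maturation genes (RPA2 and RPA3) and 0 of 3 nucleotide supply genes. These counts depend on the window: from 250 bases before to 50 after any TSS, the set was found in 12 of 14 helicase genes, 6 of 10 polymerase and primase genes, 3 of 8 origin licensing genes and 2 of 3 nucleotide supply genes (RRM2 and TYMS), against 8.70% of all genes. The helicase genes with the word were MCM2, MCM3, MCM4, MCM6, MCM7, MCM8, GINS2 and TOPBP1. Of the MCM ring only MCM5 lacked it in the strongest region, and the region at the representative MCM5 TSS held it. The regions at the representative TSS of GINS1, POLD1 and POLD3 also held it, whereas that of PCNA lacked it. RPA3 had no region there. The centre of its copy nearest to the TSS was a median of 31 bp away, and within 100 bp in 14 of the 17 genes. For the CCAAT box the median was 54 bp, and 22 of 31 genes had a copy within 100 bp. The searched regions themselves centre near the TSS, and word positions over all promoter regions are not given here.

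The related word GGCGGGAA was present in 9 genes (20.0%, against 6.57% of promoter regions and 7.93% of the strongest ones). Among them were TYMS, PRIM1, RFC2 and RFC4, which lacked the 4-word set. Either kind was present in 21 genes (46.7%, against 11.3%). The CCAAT box was present in 31 genes (68.9%, against 42.8% of promoter regions and 46.5% of the strongest ones). It was held by 11 of 14 helicase genes and 3 of 3 nucleotide supply genes. Regions with both a word of the 4-word E2F set and a CCAAT box made up 14 of the 45 (31.1%, against 3.11%). GGCGGGAA was not counted here. The CHR word TTTGAA, known from promoters of genes active late in the cell cycle, was present in 13 genes (28.9%, interval 16.4 to 44.3%, against 17.9% of promoter regions and 14.4% of the strongest ones), never within 100 bp of the TSS.

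For the other words searched, on both strands, as for CHR, the exact 95% interval of the share held the share of all promoter regions. The CHR interval began at 16.4%, above the 14.4% of regions that were the strongest of some gene. Neither comparison was a test, as the genes were chosen by name. GGGCGG, the SP/KLF word, was in 37 genes (82.2%, against 68.9%), and it can overlap GGCGGGAA. CCGGAAG, the ETS word, was in 8 (17.8%, against 18.0%), GCATGCGC, the NRF1 core, in 3 (6.67%, against 4.98%) and TGACGTCA, the cyclic AMP response element, in MCM10, RFC1 and RFC3 (6.67%, against 2.72%). AAGATGGC, the YY1 word, was in RPA2 alone (2.22%, against 5.11%), and CTCGCGAG was in POLE and RFC5 (4.44%, against 1.82%). Among the 9930 regions that were the strongest of some gene, 79.7% held the SP/KLF word and 24.2% the ETS word. The NRF1 core was in 6.82% of them, the cyclic AMP response element in 3.87%, the YY1 word in 6.81% and CTCGCGAG in 2.64%. A match describes the letters in the region and is not a bound site.

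**Figure D5:**
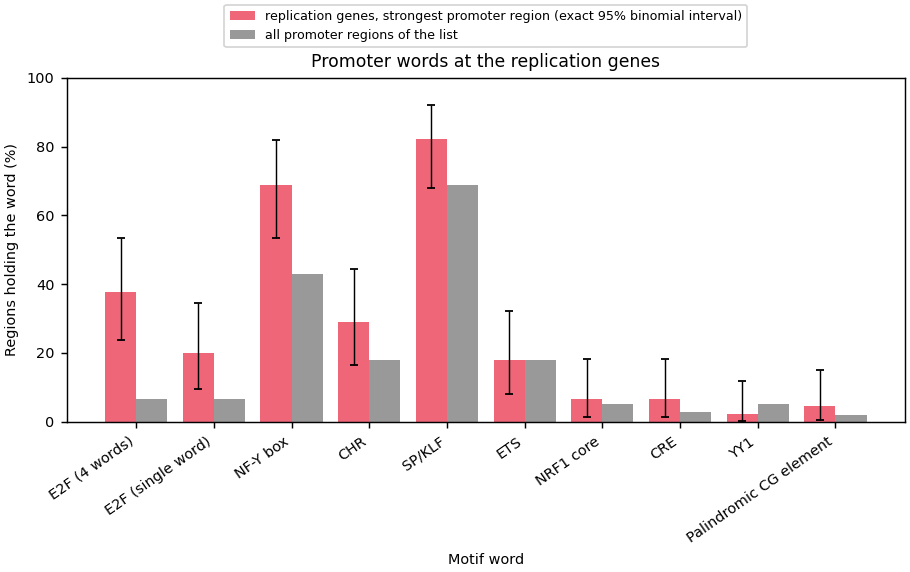
Share of regions (y axis, %) that hold each word, for the strongest promoter regions of the 45 replication genes (red, bars with exact 95% binomial intervals) and for all 16365 promoter regions of the list (grey). The 4-word E2F set differs most in ratio, at 37.8% against 6.60%, and the ETS word is nearly level at 17.8% and 18.0%. Among regions that were the strongest of some gene, 24.2% held the ETS word.

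The score was also set beside the words. For the 4-word E2F set the median was 207.7 for the 17 genes with a word and 190.8 for the 28 without, and for GGCGGGAA it was 313.7 for 9 genes and 190.8 for 36. For the CCAAT box the medians were 293.3 for the 31 genes with it and 135.5 for the 14 without. Matching medians over all genes are not given here, and these differences were not tested. The rank of the score followed GC content little. Across the 45 genes the Spearman correlation of GC content and score was 0.06, and across all 11499 genes it was 0.02. These correlations are across genes, which share the same pooled libraries and are not replicates. Across all genes the relation was not a straight one. The median score of all genes was 67.8 below a GC content of 55%, 157.6 at 55 to 65% and 127.6 above that range. For the replication genes in these classes it was 125.7 (3 genes only), 334.2 (25 genes) and 143.5 (17 genes). The strongest regions of the replication genes had a median GC content of 62.3%, against 64.3% for all genes, and a median CpG ratio of 0.89 against 0.81.

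A further 36 genes of replication and nucleotide supply outside the set gave the context. Of these, 31 had a promoter region (86.1%, against the 57.2% of all protein-coding genes), with a median score of 157.6. The strongest were MCM9, an MCM relative and partner of MCM8, at 1149.7, RRM2B, the p53-inducible ribonucleotide reductase subunit, at 960.1, DBF4, the activator of the kinase CDC7, at 938.7, and TOP1, topoisomerase I, at 767.7. No promoter region was listed for RECQL4, ATAD5, RNASEH2A, RNASEH2C or RPA4.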

How the data were processed

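ATAC-seq libraries were made from fixed single GM12878 cells. Following the methods of the study, the authors removed adapters, aligned read pairs to hg19, dropped reads that were of low quality, duplicated or mitochondrial, called summits on aggregated cells and retained the 50000 regions with the lowest q-value. Tools named in the submitters' processing notes are Bowtie2 2.1.0, Picard 1.79 and MACS2 (for which the sources used here give no version). The deposited score is the -log10 of the q-value. Whether libraries that failed the study's filter were among the pooled cells is not stated, and depth is unknown.

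Coordinates are hg19 and 1-based. TSSs of all transcripts of protein-coding genes came from GENCODE 44 mapped to GRCh37, and a region was assigned by its centre. A promoter region lay within 1 kb of a TSS. All 46 genes were named, by role. Of the other replication genes, the 4 strongest and all without a region were named. Sequences were limited to the strongest gene of each role and genes with an E2F word, and not all of these are reported here. The genes, role groups, motif words and lists were chosen with earlier results of these data known. No test was run, as there is 1 list and 1 group. Intervals are exact binomial, or order-statistic for medians, at 95%. As alternatives, promoter windows of 500 bp and 2.5 kb, the outermost TSS alone, stronger parts of the list, flanks of 0 and 50 kb and other motif windows were used. The representative TSS was added after seeing the data. Assignment and word search were tested on simulated data. Software was matplotlib 3.10.9, numpy 2.4.6, pandas 2.3.3, pysam 0.24.0, scipy 1.17.1 and Python 3.11.15.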

Additional observations from a re-analysis of the deposited data

How the results depend on the processing

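Of 57 alternative values, 52 stayed within 1.5 times the main count or within the interval of the main median. Many of these were counts of role groups at their maximum, which could only fall. The 5 that moved were counts of regions per gene and of the E2F set. They were the regions in the gene body alone and with 50 kb of flank. For E2F they were the count near the region centre, the word GGCGGGAA and the window around any TSS. The number of replication genes with a promoter region ran from 40 to 45 of 46. With only the outermost TSS of each gene, GINS2, GINS3, PRIM2, RFC5 and RPA3 had none, as did CDT1 with a 500 bp window and RPA3 with the representative TSS alone, which was added after seeing the data. POLA2 had none under any of these settings. The median score ran from 172.03 with the outermost TSS to 200.3 with the 500 bp window. The median number of regions per gene, 2.5 in the gene and 10 kb on each side, was 1 in the gene body alone (1 for all genes) and 5 with 50 kb on each side (4 for all genes), as the windows differ in size. The 4-word E2F set was found in 17 of 45 genes over the whole strongest region. Within 100 bp of the region centre it was found in 11 of 45 (2.82% of all promoter regions), and in the 250 bases before to 50 after any TSS in 27 of 46 (8.70% of all genes). The word GGCGGGAA in place of the set was found in 9 of 45. At the representative TSS the set was found in 19 of 44 genes (8.48% of all genes with a region there). No paired analysis was possible because the list pools all libraries of 1 group. With no counts and no value per cell in the list, the error of a single gene's score between cells or plates is unknown.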
